A study of Mus musculus with 24 samples.

Results

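The Runx genes and Cbfb encode the core-binding factor, and the listed members are Runx1, Runx2, Runx3 and Cbfb. They were followed across all 8 groups of an array study of Notch signalling in T6E cells, a mouse T-cell leukaemia line whose growth depends on Notch1. Members were taken by symbol from the platform annotation, with 1 probe set per gene. Of the 4 members, 3 had a probe set named there (Runx1, Runx3 and Cbfb, each with 1 probe set), out of 19938 genes. No probe set is named Runx2 in that annotation, so its expression was not analysed here.

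Every group was T6E cells carrying 1 of 4 constructs. MigR1, a retroviral expression vector, was the empty control. DNMAML is a dominant negative Mastermind-like protein, which occupies the Notch complex without activating it. ICN1 is the intracellular part of Notch1, which no longer needs gamma-secretase, and R1984A is that part with a substitution that blocks dimerization of Notch complexes. Cells of each construct were held for 6 hours in DMSO, the solvent, or in compound E at 1 uM (GSI, for inhibitor of gamma-secretase), which stops release of the cells' own intracellular Notch1. That gave 8 groups of 3 arrays, 24 in all, and a group is named by construct and treatment, such as R1984A-GSI. The labels say transfected and do not say whether a construct was carried by 1 clone or by a mixed culture, nor whether the 3 samples of a group were separate cultures. The p-values therefore speak only to the scatter of these samples, part of which could be technical.

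Runx proteins bind DNA through the Runt domain, most often at a site read as TGTGGT or, on the other strand, ACCACA. Cbfb does not touch DNA itself. It pairs with any of the Runx proteins, raises their affinity for the site and protects them from breakdown. Runx1 is required for the first blood stem cells and for early thymocytes, in which it helps keep Cd4 silent. Runx3 takes the leading role in CD8 and cytotoxic T cells, and Runx2 is best known as the master regulator of bone formation. Each Runx gene has a distal and a proximal promoter.

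The promoter sequences are shown because all 3 Runx genes carry the family's own binding site at the distal promoter. Windows of 300 bases around annotated starts were read from RefSeq (GRCm38.p6), with 2 windows for Runx1 (distal and proximal), 2 for Runx3 and 1 each for Runx2 and Cbfb. The longest run of letters common to the distal windows of Runx1 and Runx3 and the window of Runx2 was 18 bases. It holds 2 Runx sites in tandem. Each line below gives 30 bases on the gene's own strand, 5′ to 3′, with the ACCACA sites in capitals.
Runx1: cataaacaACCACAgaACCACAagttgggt
Runx2: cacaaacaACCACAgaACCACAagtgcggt
Runx3: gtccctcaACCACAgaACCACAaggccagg
The Runx1 stretch lies at chr16:92826025-92826054 on the minus strand, from base 21 to base 50 after the annotated start. That of Runx2 lies at chr17:44814583-44814612 on the minus strand, from base 16 to base 45. In Runx3 it lies upstream, at chr4:135120503-135120532 on the plus strand. TGTGGT or ACCACA was found in 16.8% of 32851 promoter windows of this length, and 2 or more matches in 1.81%. The whole 18-base run was found in 4 windows (0.0122%), those of the 3 Runx genes and of Gm16225, a long noncoding RNA gene next to Runx3. The proximal windows of Runx1 and Runx3 and the Cbfb window held 0 matches.

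The core of the site bound by RBPJ, the DNA-binding partner of intracellular Notch, is TGGGAA, read on the other strand as TTCCCA. It was found in 25.6% of all windows, and among those of the members once, in the distal Runx3 window 12 bases into the stretch at chr4:135120479-135120532 (plus strand). Capitals mark the TGGGAA and the Runx sites that follow it.
Runx3: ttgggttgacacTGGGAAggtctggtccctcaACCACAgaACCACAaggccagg
A match describes letters only, and binding was not measured.

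Expression values are log2 values as the authors deposited them, so a difference of 1 is a doubling of signal. The 24 arrays had medians of 4.06 to 4.32 over genes, and arrays of the same group correlated across genes with r of 0.982 to 0.994. All members with a probe set were above these medians. Runx1 lay between 6.79 and 8.14, Runx3 between 6.35 and 7.84 and Cbfb between 7.93 and 8.55 over the 24 arrays. The levels of different probe sets are not comparable with each other. The probe set of Runx1 is annotated with every RefSeq transcript of the gene, so transcripts from the distal and proximal promoters cannot be told apart. Of 9 measured T-cell markers 8 were above the median of every array, including the T-cell receptor chains Cd3d, Cd3e, Cd3g and Cd247, while Cd5 was not. Of 8 myeloid and 5 erythroid or megakaryocyte markers 0 were. Among the markers of other cells, Vpreb1 (1 of 7 B-cell genes), Gzma and Id2 (2 of 6 natural killer and innate genes) and Col1a1 and Col1a2 (2 of 8 stroma and bone genes) were above it. Nrarp, a direct Notch target, served as a check of the labels. It averaged 5.31 ± 0.16 in MigR1-DMSO, between 4.07 and 4.17 in the 3 groups with GSI or DNMAML but no added Notch1, and between 6.12 and 6.37 in the 4 groups with ICN1 or R1984A.

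**Figure D1:**
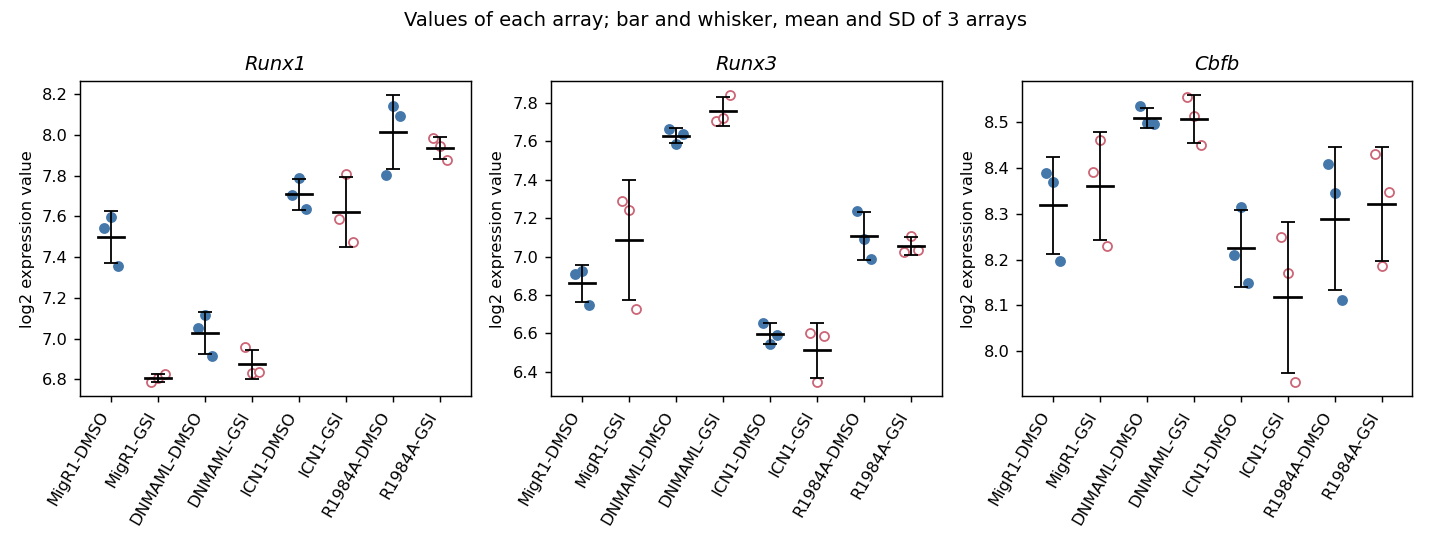
Log2 expression values of Runx1, Runx3 and Cbfb on each of the 24 arrays, by group (filled points, DMSO; open points, GSI), with the mean and SD of 3 arrays. Runx1 is lowest in MigR1-GSI and both DNMAML groups and highest in both R1984A groups, Runx3 is highest in both DNMAML groups and lowest in both ICN1 groups, and Cbfb spans a narrower range; the axes differ in range.

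Runx1 was lower where Notch was blocked, and in GSI it was higher where intracellular Notch1 was supplied. In DMSO a rise with supplied Notch1 was called for R1984A only. In these cultures, less RNA per cell and fewer cells expressing the gene cannot be told apart. In MigR1-DMSO its values were 7.54, 7.60 and 7.36, and in MigR1-GSI they were 6.79, 6.81 and 6.83. All arrays of the GSI group were below all arrays of the solvent group. The fall of 6 hours of GSI was -0.69 on the log2 scale (SE 0.11, 95% interval -0.92 to -0.47, limma adjusted p = 0.0032), where 0.166% of all genes were called (0.0301% higher and 0.135% lower) and 8.50% had groups without overlap. By p-value Runx1 ranked 11 among the 19938 genes. Comparing arrays of the same replicate number, the difference was -0.76, -0.79 and -0.53. The call was kept in 13 of 17 alternative analyses. It was lost with only the 2 groups compared in the limma fit (adjusted p = 0.20), with each array centred on its median (adjusted p = 0.078), and with all arrays of replicate number 1 (adjusted p = 0.41) or 2 (adjusted p = 0.74) left out.

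DNMAML lowered Runx1 as well, in solvent. The DNMAML-DMSO values were 7.05, 7.12 and 6.91, again below every MigR1-DMSO array. The difference was -0.47 (SE 0.11, 95% interval -0.70 to -0.25, limma adjusted p = 0.021), and 0.833% of genes were called lower in this comparison and 16.3% did not overlap. With the same replicate number compared, it was -0.49, -0.48 and -0.44. This call was lost when MigR1-DMSO replicate 1 (-0.45, adjusted p = 0.076), MigR1-DMSO replicate 2 (-0.42, adjusted p = 0.13), DNMAML-DMSO replicate 1 (-0.48, adjusted p = 0.060) or DNMAML-DMSO replicate 3 (-0.41, adjusted p = 0.11) was left out of the limma fit. It was kept in 8 of 17 alternatives in all, and was also lost with all arrays of replicate number 1 (limma adjusted p = 0.25), 2 (0.47) or 3 (0.082) left out. Markers of T cells and innate cells that rose in the same comparison are given with Runx3.

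With both DNMAML and GSI, Runx1 showed no called difference from either alone. DNMAML-GSI gave 6.96, 6.83 and 6.84. These arrays overlapped those of DNMAML-DMSO and lay just above those of MigR1-GSI. Against DNMAML-DMSO the difference was -0.15 (95% interval -0.38 to 0.07, limma adjusted p = 1.00), and against MigR1-GSI it was 0.07 (95% interval -0.16 to 0.29, limma adjusted p = 0.999). Of all genes 0.00502% were called in the former comparison and 0.191% in the latter (0.105% higher and 0.0853% lower), where 9.86% had groups without overlap.

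In GSI, Runx1 was higher in cells with added intracellular Notch1 than in empty-vector cells. ICN1-GSI arrays read 7.59, 7.81 and 7.47, and R1984A-GSI arrays read 7.99, 7.95 and 7.88. None of these 6 arrays was as low as any MigR1-GSI array. ICN1-GSI stood above MigR1-GSI by 0.82 (SE 0.11, 95% interval 0.59 to 1.04, limma adjusted p = 3.9e-05). R1984A-GSI stood above it by 1.13 (SE 0.11, 95% interval 0.91 to 1.36, limma adjusted p = 7.3e-07), which ranked 12 by p-value among all genes. In these comparisons 2.35% and 1.36% of genes were called, 1.28% and 1.04% higher, and 12.3% and 10.3% of genes had groups that did not overlap. Both calls were kept in all 17 alternative analyses. ICN1-GSI was close to the untreated MigR1-DMSO level, with a difference of 0.12 and a 95% interval of -0.10 to 0.35.

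In solvent, where the cells' own Notch1 could still be cleaved, the added Notch1 gave smaller differences. R1984A-DMSO values were 7.80, 8.14 and 8.09, above every MigR1-DMSO array. The rise was 0.51 (SE 0.11, 95% interval 0.29 to 0.74, limma adjusted p = 0.015), with 0.978% of genes called, 0.868% higher and 0.110% lower, and 12.3% not overlapping. That call was lost without MigR1-DMSO replicate 3 (0.44, adjusted p = 0.14), R1984A-DMSO replicate 2 (0.45, adjusted p = 0.13) or R1984A-DMSO replicate 3 (0.47, adjusted p = 0.094), and with a second quantile normalization (0.43, adjusted p = 0.075). It was kept in 8 of 17 alternatives in all, and was also lost with all arrays of replicate number 1 (limma adjusted p = 0.095), 2 (0.51) or 3 (0.27) left out. Of the 6 natural killer and innate markers only Id2 was called with R1984A, higher by 0.82 in DMSO and by 0.99 in GSI. The other 5 were not called, and the median difference of the 6 was 0.0090 in DMSO and -0.087 in GSI. In GSI 1.04% of all genes were called higher. The part of Id2 in the Runx1 differences was not tested. ICN1-DMSO, at 7.71, 7.79 and 7.63, was also above every MigR1-DMSO array, but the difference of 0.21 (95% interval -0.01 to 0.43) was not called (limma adjusted p = 0.87). Here 0.727% of genes were called (0.421% higher and 0.306% lower) and 13.6% did not overlap.

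Between both forms of Notch1, Runx1 showed no called difference. R1984A arrays were all above the ICN1 arrays of the same treatment. In GSI, ICN1 minus R1984A was -0.31 (SE 0.11, 95% interval -0.54 to -0.09), and in DMSO it was -0.30 (SE 0.11, 95% interval -0.53 to -0.08). Neither was called, with limma adjusted p-values of 0.27 and 0.33, and 12.1% and 13.4% of genes had groups that did not overlap. In order of mean level, R1984A-DMSO (8.01 ± 0.18) and R1984A-GSI (7.94 ± 0.05) did not differ beyond their spread. After a step of 0.23 (95% interval 0.0028 to 0.45) came ICN1-DMSO (7.71 ± 0.08), ICN1-GSI (7.62 ± 0.17) and MigR1-DMSO (7.50 ± 0.13). Between neighbours among these, the 95% interval of the difference included 0. After a step of 0.47 came DNMAML-DMSO (7.03 ± 0.10), DNMAML-GSI (6.87 ± 0.07) and MigR1-GSI (6.81 ± 0.02), again without a difference between neighbours beyond the interval (SD, n = 3 in each group).

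GSI gave no called difference of Runx1 in cells with the other constructs. The difference was -0.09 in ICN1 cells (95% interval -0.31 to 0.14) and -0.08 in R1984A cells (95% interval -0.30 to 0.15), with limma adjusted p-values of 1.00 and 0.999. In those comparisons limma called 0 genes, with 472 and 635 at an unadjusted p under 0.05. Whether the response differed from that of empty-vector cells was tested directly. The response was less negative by 0.54 in DNMAML cells (95% interval 0.22 to 0.86), by 0.61 in ICN1 cells (0.29 to 0.92) and by 0.62 in R1984A cells (0.30 to 0.94). The intervals leave out 0, but none of these differences was called after adjustment over all genes (limma adjusted p = 1.00, 0.82 and 0.55). In these tests 0.00502%, 0.0150% and 0.0251% of genes were called.

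**Figure D2:**
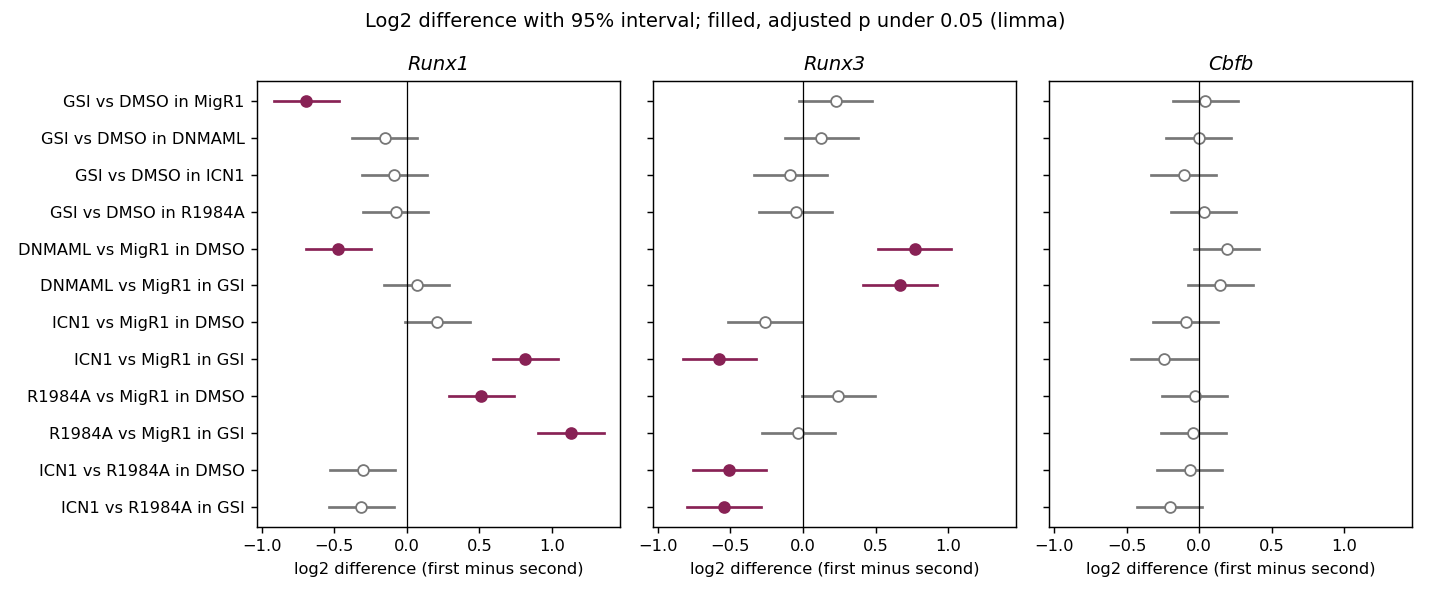
Log2 differences of Runx1, Runx3 and Cbfb in the 12 group comparisons with their 95% intervals from the limma fit (first named group minus second; filled points, adjusted p under 0.05). Runx1 and Runx3 each have 5 called differences, of opposite sign under DNMAML in DMSO and under ICN1 in GSI, and Cbfb has 0. Per comparison 0% to 2.35% of all genes were called.

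Runx3 went the other way under DNMAML. MigR1-DMSO arrays read 6.91, 6.92 and 6.75, and DNMAML-DMSO arrays 7.66, 7.59 and 7.64. The groups did not overlap, as for 16.3% of all genes. The rise was 0.77 (SE 0.12, 95% interval 0.52 to 1.02, limma adjusted p = 8.0e-04), where 1.10% of genes were called higher, and it ranked 55 by p-value. It was 0.75, 0.66 and 0.89 between arrays of the same number, and the call was kept in 16 of 17 alternatives, the exception being the limma fit without all arrays of replicate number 2 (0.82, adjusted p = 0.13). Of 9 measured T-cell markers 2 moved beside it, Cd247 by 1.08 and Thy1 by 0.72. The other 7 were not called, and the median difference of the 9 was 0.093. The mean of the 9, which includes Cd247 and Thy1, was 7.86 to 8.11 over MigR1-DMSO arrays and 8.10 to 8.32 over DNMAML-DMSO arrays. Of the 6 natural killer and innate markers 1 was called, Gzma, from 9.70 in MigR1-DMSO to 10.13 in DNMAML-DMSO. The part of these markers in the differences of Runx3 and Runx1 was not tested. The same cells in GSI read 7.71, 7.72 and 7.84. They stood above MigR1-GSI by 0.67 (SE 0.12, 95% interval 0.42 to 0.92, limma adjusted p = 0.016), where 0.105% of genes were called higher and 9.86% did not overlap.

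MigR1-GSI was the most scattered group for Runx3. Its arrays read 7.29, 7.24 and 6.73, the last of these below all 3 arrays of the solvent group (6.75 to 6.92) and the others above them. Without replicate 3 the DNMAML difference in GSI was 0.49 (limma adjusted p = 0.088). It was also not called without DNMAML-GSI replicate 2 (0.69, adjusted p = 0.078) or DNMAML-GSI replicate 3 (0.63, adjusted p = 0.11), in the limma fit. The call was kept in 9 of 17 alternatives in all, and was also lost with all arrays of replicate number 1 (limma adjusted p = 0.24), 2 (0.99) or 3 (0.23) left out. GSI alone gave 0.23 in empty-vector cells (95% interval -0.03 to 0.48, limma adjusted p = 1.00). Against DMSO it gave 0.13 in DNMAML cells, where the groups did not overlap, as for 7.25% of all genes, with a 95% interval of -0.13 to 0.38.

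ICN1 lowered Runx3 in GSI. ICN1-GSI arrays read 6.60, 6.35 and 6.58, below all 3 of MigR1-GSI. The difference was -0.58 (SE 0.12, 95% interval -0.83 to -0.32, limma adjusted p = 0.0079), with 1.07% of genes called lower and 12.3% not overlapping. It was -0.69, -0.90 and -0.14 between arrays of the same number, with the smallest value for replicate 3. The call was lost without MigR1-GSI replicate 1 (-0.47, adjusted p = 0.068), MigR1-GSI replicate 2 (-0.50, adjusted p = 0.061) or ICN1-GSI replicate 2 (-0.49, adjusted p = 0.061) in the limma fit. It was kept in 10 of 17 alternatives in all, and was also lost with all arrays of replicate number 1 (limma adjusted p = 0.24) or 2 (0.57) left out. In DMSO the ICN1 arrays read 6.65, 6.55 and 6.59, below each MigR1-DMSO array, with a difference of -0.26 (95% interval -0.52 to -0.01) that was not called (limma adjusted p = 0.78), where 13.6% of genes did not overlap.

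Runx3 was lower with ICN1 than with the dimerization-defective R1984A in both treatments. R1984A-GSI arrays read 7.02, 7.11 and 7.03, and R1984A-DMSO arrays 7.24, 7.09 and 6.99. Every R1984A array was above every ICN1 array, and 12.1% of all genes did not overlap in GSI and 13.4% in DMSO. ICN1 minus R1984A was -0.54 in GSI (SE 0.12, 95% interval -0.80 to -0.29, limma adjusted p = 0.025) and -0.51 in DMSO (SE 0.12, 95% interval -0.76 to -0.25, limma adjusted p = 0.043). In GSI 1.10% of genes were called (0.321% higher and 0.782% lower), and in DMSO 0.963% (0.261% higher and 0.702% lower). Both calls sat close to the threshold. With 1 of the 6 arrays left out of the limma fit, the difference in GSI was called in 1 of 6 fits (adjusted p from 0.042 to 0.14, kept without ICN1-GSI replicate 1) and the difference in DMSO in 0 of 6 (adjusted p from 0.055 to 0.24). The direction was the same in each of these fits. Over all 17 alternatives the call was kept in 8 in GSI and in 6 in DMSO. Leaving out all arrays of replicate number 1 or 2 lost both (limma adjusted p = 0.24 and 0.80 in GSI, 0.60 and 0.80 in DMSO). Against empty vector, R1984A gave -0.03 in GSI (95% interval -0.28 to 0.22) and 0.24 in DMSO (95% interval -0.01 to 0.50), neither called (limma adjusted p = 1.00 and 0.77).

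The order of the Runx3 levels differed from that of Runx1. DNMAML-GSI (7.76 ± 0.07) and DNMAML-DMSO (7.63 ± 0.04) were highest and did not differ beyond their interval. After a step of 0.52 came R1984A-DMSO (7.11 ± 0.12), MigR1-GSI (7.09 ± 0.31), R1984A-GSI (7.05 ± 0.05) and MigR1-DMSO (6.86 ± 0.10), with no difference between neighbours beyond the interval. ICN1-DMSO (6.60 ± 0.05) and ICN1-GSI (6.51 ± 0.14) were lowest (SD, n = 3 in each group). The R1984A groups thus held the highest Runx1 and an intermediate Runx3, the ICN1 groups a high Runx1 and the lowest Runx3.

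Cbfb, the partner shared by all Runx proteins, varied least. Its group means ran from 8.12 ± 0.16 in ICN1-GSI to 8.51 ± 0.02 in DNMAML-DMSO, a range of 0.39, against 1.21 for Runx1 and 1.24 for Runx3. Depending on the comparison, 0% to 2.35% of all genes were called. In the 12 group comparisons limma called Cbfb 0 times, with 1 at an unadjusted p under 0.05. That was ICN1-GSI (8.25, 8.17 and 7.93) against MigR1-GSI (8.39, 8.46 and 8.23), at -0.24 (95% interval -0.47 to -0.02, limma adjusted p = 0.39). There 2136 of the 19938 genes had an unadjusted p under 0.05. The lowest MigR1-GSI array was below the highest ICN1-GSI array, so the groups overlapped. DNMAML-DMSO (8.53, 8.50 and 8.49) lay above every MigR1-DMSO array (8.39, 8.37 and 8.20), the only comparison in which Cbfb did not overlap. The difference of 0.19 (95% interval -0.03 to 0.41) was not called (limma adjusted p = 0.62), where 1.94% of genes were called and 16.3% did not overlap. Over all 12 comparisons the 95% intervals reached no further than -0.47 and 0.41.

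Over the 8 group means, Runx1 correlated with Nrarp with r of 0.93 and with Myc with r of 0.67, while Runx3 correlated with Myc with r of -0.91 and with Cbfb with r of 0.96. Runx1 and Runx3 correlated with r of -0.58. These values describe 8 points that come in pairs of the same construct, and carry no test. Of 2917 genes whose group means spanned at least 0.5, those most like Runx1 were Wdr93, Cipc, Tacc2, P2ry2 and Mfsd2a (r from 0.982 to 0.987). P2ry2 is a receptor for extracellular nucleotides, Cipc a regulator of the circadian clock and Mfsd2a a lysophospholipid transporter. Those most like Runx3 were Prkcq, Dlg4, Acta2, Fli1 and Dok2 (r from 0.989 to 0.995). Prkcq is the protein kinase C of T-cell receptor signalling, Fli1 an Ets transcription factor that binds beside Runx1 in blood cells, and Dok2 an adaptor that dampens receptor signalling. For Cbfb they were Hmbox1, Dcaf5 and Sp140 (r from 0.990 to 0.992). All of these were picked as the highest among the genes that met that span.

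Genes that work with Runx proteins were taken as a list of 31 cofactors, neighbouring transcription factors and modifying enzymes, all of them measured. DNMAML in DMSO raised 3 of the 31 and lowered 0, against 1.10% of all genes called higher. Ets1, the Ets factor that binds DNA cooperatively with Runx1, rose by 0.86 (SE 0.14, limma adjusted p = 9.8e-04). Gata3, a factor of T-cell commitment, rose by 0.62 (SE 0.11) and Fli1 rose by 0.58 (SE 0.12). The median difference of the list was 0.08, beside -0.0042 for all genes. The corepressors Tle1 to Tle4, the acetyltransferases Ep300 and Crebbp and the other members were not called. With GSI in MigR1 cells limma called 0 of the 31, where 0.166% of all genes were called. At an unadjusted p under 0.05 were 3 of the 31, and 972 of the 19938 genes. DNMAML against MigR1 in GSI gave 0 calls among the 31, where 0.191% of all genes were called, with a list median of 0.08.

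ICN1 against MigR1 in DMSO gave 0 calls among the 31, where 0.727% of all genes were called. In ICN1-GSI against MigR1-GSI, 2 of the 31 were lower and 0 higher, beside 1.07% of genes called lower. They were Gata3 (-0.70, SE 0.11, limma adjusted p = 2.5e-04) and Cbfa2t3 (-0.58, SE 0.14), a corepressor of the family first found fused to Runx1 in leukaemia. R1984A-GSI had 2 lower than MigR1-GSI, beside 0.326% of genes called lower, Ets1 (-0.64, SE 0.14, limma adjusted p = 0.016) and Gata3 (-0.44, SE 0.11). Between ICN1 and R1984A in GSI only Myb of this list was called, at -0.40 (SE 0.10, limma adjusted p = 0.047). In that comparison 0.321% of all genes were called higher and 0.782% lower.

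**Figure D3:**
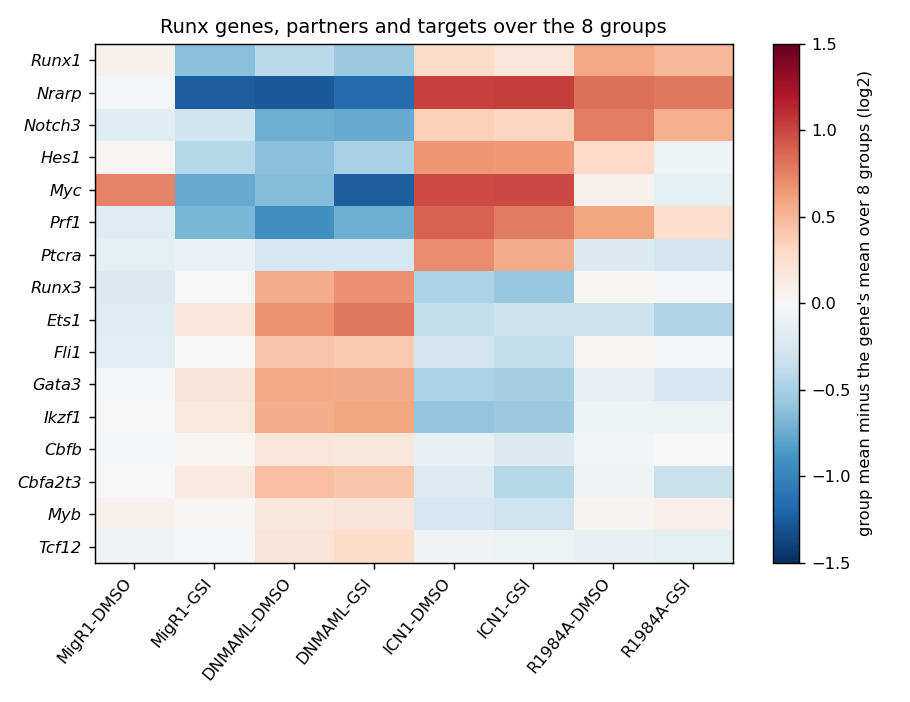
Group means of Runx1, Runx3, Cbfb and of partner, circuit and target genes with called or near-called differences, each as the difference from the gene's own mean over the 8 groups (log2; red, higher; blue, lower). The rows were chosen after their values were seen; Runx1 is drawn beside Nrarp and Notch3, and Runx3 beside Ets1, Fli1, Gata3 and Ikzf1, which are all higher in the DNMAML groups than in the ICN1 groups.

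A list of 33 measured genes that Runx proteins are reported to bind or regulate in T cells and blood progenitors went both ways. Under DNMAML in DMSO, 2 rose and 2 fell, beside 1.10% of all genes called higher and 0.833% called lower. Cd4, silenced by Runx proteins in early and CD8 T cells, rose by 0.97 (SE 0.15, limma adjusted p = 7.3e-04) and Il2rb, a receptor chain for interleukin-2 and interleukin-15, rose by 0.92 (SE 0.16). Rag1, part of the recombinase of antigen receptor genes, was at -2.15 (SE 0.31) and Prf1, which encodes perforin, at -0.73 (SE 0.16). In MigR1-DMSO Cd4 averaged 3.86 and Il2rb 3.68, and in DNMAML-DMSO Rag1 averaged 3.08, all below the gene median of every array, so the sizes of these differences are uncertain. The median difference of the list was -0.0045, beside -0.0042 for all genes. Compared in GSI, DNMAML and MigR1 cells had 0 calls among the 33, where 0.191% of all genes were called.

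In ICN1-GSI against MigR1-GSI, 4 of the 33 were higher and 2 lower, beside 1.28% and 1.07% of all genes. Rag1 (3.93, SE 0.31), Rag2 (2.54, SE 0.21), Prf1 (1.47, SE 0.16) and Ptcra, the surrogate chain of the pre-T-cell receptor (0.66, SE 0.17, limma adjusted p = 0.031), were higher. Cd4 (-0.86, SE 0.15) and Tox, a factor of thymocyte selection (-0.44, SE 0.10), were lower. R1984A-GSI had 1 higher, Prf1 (0.94, SE 0.16, limma adjusted p = 0.0013), and 1 lower, Cd4 (-0.71, SE 0.15), beside 1.04% and 0.326% of all genes, and both genes had the same sign as with ICN1. Between ICN1-GSI and R1984A-GSI, 3 of the 33 were higher with ICN1 and 1 lower, beside 0.321% and 0.782% of all genes. Rag1, Rag2 and Ptcra were higher in ICN1-GSI, by 3.27 (SE 0.31), 2.59 (SE 0.21) and 0.85 (SE 0.17). Tox was lower, with a mean of 8.91 in ICN1-GSI and 9.43 in R1984A-GSI. Rag2 averaged 2.58 and Rag1 3.83 in MigR1-GSI and Cd4 3.39 in ICN1-GSI, near background, so these sizes are uncertain too. The genes of CD8 T cells Cd8a, Tbx21 and Eomes were not called in these comparisons. Their group means stayed between 3.15 and 4.05, below the gene median of every array, so a change could have been missed.

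Other transcription factors of T-cell leukaemia that share enhancers with Runx1 were followed as a list of 15 measured genes. Under DNMAML in DMSO 3 rose (Ets1, Gata3 and Ikzf1) and 3 fell (Myc, Hes1 and Notch3), beside 1.10% and 0.833% of all genes. Ikzf1, which encodes Ikaros, a repressor of Notch target genes, rose by 0.55 (SE 0.11, limma adjusted p = 0.0054). In ICN1-GSI against MigR1-GSI the same 5 genes other than Ets1 were called with the opposite sign, Ikzf1 at -0.72 (SE 0.11) and Myc at 1.75 (SE 0.21). There 1.28% of all genes were called higher and 1.07% lower. In DMSO, ICN1 against MigR1 had 1 of the 15 higher and 1 lower, beside 0.421% and 0.306% of all genes. ICN1 and R1984A in GSI differed in 4 of the 15, with Hes1 (0.71, SE 0.14) and Myc (1.14, SE 0.21) higher and Ikzf1 (-0.48, SE 0.11) and Myb lower in ICN1, beside 0.321% and 0.782% of all genes. DNMAML against MigR1 in GSI gave 0 calls among the 15, where 0.191% of all genes were called. With GSI in MigR1 cells 1 of the 15 was lower and 0 higher, beside 0.135% of all genes called lower. That was Myc, with a mean of 9.28 in MigR1-DMSO and 7.78 in MigR1-GSI. R1984A-GSI against MigR1-GSI had 1 of the 15 higher and 2 lower, beside 1.04% and 0.326% of all genes. Tal1, Lyl1, Lmo2 and Erg, leukaemia genes that bind with Runx1 elsewhere, were called in none of the 12 comparisons and averaged 3.04 to 4.47. Per comparison 0% to 2.35% of all genes were called. Those levels lie below or near the gene medians of the arrays (4.06 to 4.32), so a change could have been missed.

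Genes of bone and cartilage known as Runx2 targets were listed as well, and 9 of 12 were measured. In each of the 12 group comparisons limma called 0 of the 9, with at most 1 at an unadjusted p under 0.05. From 0% to 2.35% of all genes were called per comparison, so 0 of 9 says little about these genes. In MigR1-DMSO, Ibsp (2.72), Mmp13 (2.89), Sp7 (3.71) and Alpl (3.96) averaged below the gene median of every array. The others averaged 4.34 to 5.95 there.

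**Figure D4:**
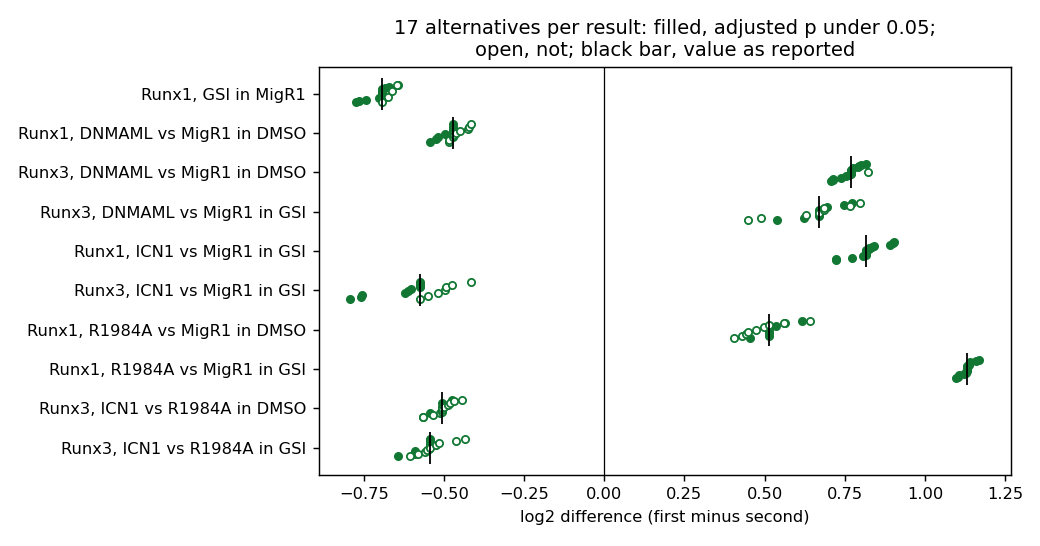
Log2 difference of each of the 10 called results under 17 alternative analyses per result (filled, adjusted p under 0.05; open, not), with a black bar for the value reported. The 10 results keep their sign throughout, and the rise of Runx1 with ICN1 and with R1984A in GSI are the 2 that keep the call in all 17.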

How the data were processed

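The authors' deposited table holds log2 expression values for 35556 probe sets on 24 arrays, 1.28 to 13.47. Per the submitters' processing notes they used the R packages oligo and limma; background correction and normalization are not given there. Their scale was read from the values, which were used without further scaling. Names came from the platform annotation: 21789 probe sets had 1 gene symbol, 1621 several and 12146 were unnamed. Where a gene had several probe sets, the brightest on average was kept, which left 19938 genes.

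Groups were compared using limma (version 3.58.1, R version 4.3.3). One linear model fitted a mean to every group from the 24 arrays (16 residual and 6.56 prior degrees of freedom). Tests were two-sided, p-values were adjusted by Benjamini-Hochberg over the genes of a comparison, and a difference was called under 0.05. All adjusted p-values come from this fit or its alternatives. Comparisons share groups, so they are not independent. The members, lists and comparisons were chosen with earlier results of these data known. Genes named from a list are up to 5 called members with the largest difference; the genes most like a member (5, or 3 where it had no call) have the highest Pearson r over the 8 group means among genes spanning at least 0.5. The fit was also run on simulated data with independent noise on each array. The simulation held no shifts shared by replicate number, so it says nothing about their effect here. The number of arrays limits the precision.

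Titles number the samples of a group 1 to 3. Deviations from the group means of same-numbered arrays correlated above 0.1 in every pair for 7 of the 12 group comparisons. Array medians over all probe sets were 3.91 to 3.95 for number 1, 3.90 to 4.07 for number 2 and 4.05 to 4.18 for number 3. Whether the numbers pair the samples or mark arrays handled together cannot be told from these values. The main fit did not use the numbers, and the replicate block among the alternatives did.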

Additional observations from a re-analysis of the deposited data

How the results depend on the processing

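Each member was refitted under 17 alternatives in each group comparison (replicate block, second quantile normalization, arrays centred on their medians, array weights, a trend and robust prior, only the groups compared, every named probe set, only the brighter genes, and arrays left out). The 10 called differences kept their direction in all of these, 2 of them kept the call in all (Runx1 with ICN1 and with R1984A in GSI), and 0 uncalled results gained a call. The replicate block changed no call of a member (Runx1, GSI in MigR1 cells: limma adjusted p = 6.4e-04), while the genes called with DNMAML in DMSO went from 386 to 934.

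Calls lost, as differences with limma adjusted p. A second quantile normalization gave 0.43 (0.075) for Runx1 with R1984A in DMSO. Centring gave -0.68 (0.078) for Runx1 with GSI in MigR1 cells, -0.43 (0.22) for Runx1 with DNMAML in DMSO, 0.69 (0.14) for Runx3 with DNMAML in GSI, -0.55 (0.095) for Runx3 with ICN1 in GSI, 0.56 (0.061) for Runx1 with R1984A in DMSO, and -0.50 (0.28) and -0.52 (0.21) for Runx3 between ICN1 and R1984A in DMSO and GSI. With only the compared groups in the fit these 7 were -0.69 (0.20), -0.47 (0.11), 0.67 (0.62), -0.58 (0.29), 0.51 (0.20), -0.51 (0.088) and -0.54 (0.19), and the trend and robust prior gave -0.51 (0.051) for Runx3 between ICN1 and R1984A in DMSO. The cause was not tested.

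With arrays left out, called differences ranged from -0.77 to -0.64 (Runx1, GSI in MigR1), -0.54 to -0.41 (Runx1, DNMAML in DMSO), 0.71 to 0.82 (Runx3, DNMAML in DMSO), 0.45 to 0.80 (Runx3, DNMAML in GSI), -0.79 to -0.41 (Runx3, ICN1 in GSI), 0.40 to 0.64 (Runx1, R1984A in DMSO), and -0.57 to -0.44 and -0.61 to -0.43 (Runx3, ICN1 against R1984A in DMSO and GSI). Each of these 8 kept its sign.

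Uncalled differences near 0 changed sign in 14 results. Other settings gave 0.020 for Runx3 with GSI in R1984A and 0.021 for the Cbfb response, R1984A minus MigR1 (second quantile normalization), 0.017 for Cbfb with R1984A in DMSO and 0.00015 for the Runx1 response, ICN1 minus R1984A (centring), and -0.091 for Cbfb with GSI in R1984A and 0.031 for that Runx1 response (array weights). Left-out arrays gave, for Cbfb, -0.019 to 0.11 (GSI in MigR1), -0.027 to 0.025 (GSI in DNMAML), -0.070 to 0.13 (GSI in R1984A), -0.090 to 0.059 (R1984A in DMSO), -0.12 to 0.078 (R1984A in GSI) and -0.15 to 0.0024 (ICN1 against R1984A in DMSO). For Runx3 they gave -0.11 to 0.030 (GSI in R1984A) and -0.21 to 0.086 (R1984A in GSI). For the responses they gave -0.28 to 0.020 (Runx3) and -0.11 to 0.016 (Cbfb) for DNMAML minus MigR1, -0.12 to 0.11 for Cbfb, R1984A minus MigR1, and -0.12 to 0.13 (Runx1), -0.14 to 0.054 (Runx3) and -0.22 to 0.017 (Cbfb) for ICN1 minus R1984A.

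Over the alternatives the genes called ranged from 2 to 82 for GSI in MigR1 cells, from 11 to 934 for DNMAML in DMSO and from 0 to 163 for DNMAML in GSI, where 33, 386 and 38 were called. With ICN1 they ranged from 25 to 316 in DMSO and 151 to 960 in GSI (145 and 469), with R1984A from 31 to 366 and 78 to 690 (195 and 272), and between ICN1 and R1984A from 20 to 456 and 27 to 739 (192 and 220).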

Other observations

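Id2, an inhibitor of E-protein transcription factors listed here as a marker of innate cells, was higher with R1984A than with empty vector, by 0.82 in DMSO (SE 0.14, limma adjusted p = 0.0016) and by 0.99 in GSI (SE 0.14, limma adjusted p = 1.2e-04). Id2 was singled out after its values were seen. The other 5 of the 6 innate markers were not called in either comparison, where 0.868% and 1.04% of all genes were called higher. Id2 averaged 7.06 and 7.02 in the MigR1 groups, 7.35 and 7.40 in the DNMAML groups, 7.50 in both ICN1 groups, and 7.88 and 8.005 in the R1984A groups (DMSO, then GSI). Like Runx1 it was highest with R1984A, but its DNMAML means lay above those of MigR1, where that of Runx1 lay below in DMSO.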
